A study of Homo sapiens with 96 samples.

Results

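Nuclear input RNA was sequenced from the hTERT-RPE1 line, retinal pigment epithelium of human origin that telomerase keeps dividing. These libraries were chosen by their labels, and they number 12 of the 96 samples of the series. They cover 5 windows of cells moving through S phase, labelled T0-2, T2-4, T4-6, T6-8 and T8-10, and asynchronous cells; every group had 2 libraries, numbered 1 and 2. The labels give 400 uM mimosine for 22 h as the synchronising treatment, in a text shared by all samples that also names antisense transfection, which the titles tie to other samples. All groups here share the hTERT-RPE1 line, which carries telomerase; whether the cells were 1 clone is not stated. The asynchronous libraries are labelled asynchronized with no drug tied to them, so time in S phase and exposure to mimosine cannot be told apart in any comparison below. The sources used here give neither the unit of the window numbers nor the meaning of the replicate numbers. They also do not say whether replicates came from separate cultures, so a p-value covers library-to-library spread that may be technical. "Input" is the submitters' word for the nuclear RNA set beside the nascent fraction.

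During S phase a cell copies its DNA and must supply new histones at the same time. Most histone genes are therefore replication-dependent: they lie in clusters, lack introns, end their messages in a stem-loop instead of a poly(A) tail, and are switched on together as replication starts. Genes for replication factors are classically activated before S phase by E2F factors, and genes for mitosis later by B-MYB and FOXM1. Mimosine is a plant amino acid that binds iron and holds cells at the border of G1 and S phase. Nuclear RNA holds unspliced precursors and retained transcripts as well as mature messages on their way out, so its level reflects synthesis, processing, export and decay together.

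Levels below are the authors' deposited RPKM values, which divide reads by gene length in kilobases and by library size. The gene lengths given by the authors follow the whole gene span with introns for most genes, so a long gene with a low RPKM can rest on many reads. Some are longer than the RefSeq gene, such as HIST1H2AC (14.97 kb), LDHB (122.5 kb) and GDF15 (14.45 kb). Values of such genes can hold reads from outside the RefSeq gene. Library sizes recovered from the values ran from 8.38 to 19.6 M reads (M, 10 to the power 6). Differences are on the scale log2(RPKM + 0.25) with their standard errors (SE), which understates changes of weak genes, and compare the mean of the 5 window means with asynchronous cells unless a window is named. A gene is said to have risen or fallen when limma's Benjamini-Hochberg adjusted p was under 0.05 over all 9633 genes tested. Testing required 0.5 RPKM in at least 2 of the 12 libraries, so some genes entered through the windows or the asynchronous libraries alone.

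The 12 libraries differed first by replicate number and then by window. The leading axis of variation, with 48.6% of the variance, put every library numbered 1 on one side (-33.6 to -15.6) and every library numbered 2 on the other (15.7 to 31.0). The next axis, with 20.9%, ordered the windows from T0-2 (21.7 and 18.7) to T8-10 (-11.0 and -5.0), with the asynchronous libraries beyond them at -29.7 and -35.2. The small nuclear RNA genes RNU4-2 and RNU4-1, which encode U4 RNA of the spliceosome, showed the split by number in its most extreme form. RNU4-2 stood at 75.6 to 234 RPKM in the windows numbered 1, 27360 to 66560 in the windows numbered 2, and 39.5 and 39170 in asynchronous libraries 1 and 2. What the number stands for was not tested.

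**Figure D1:**
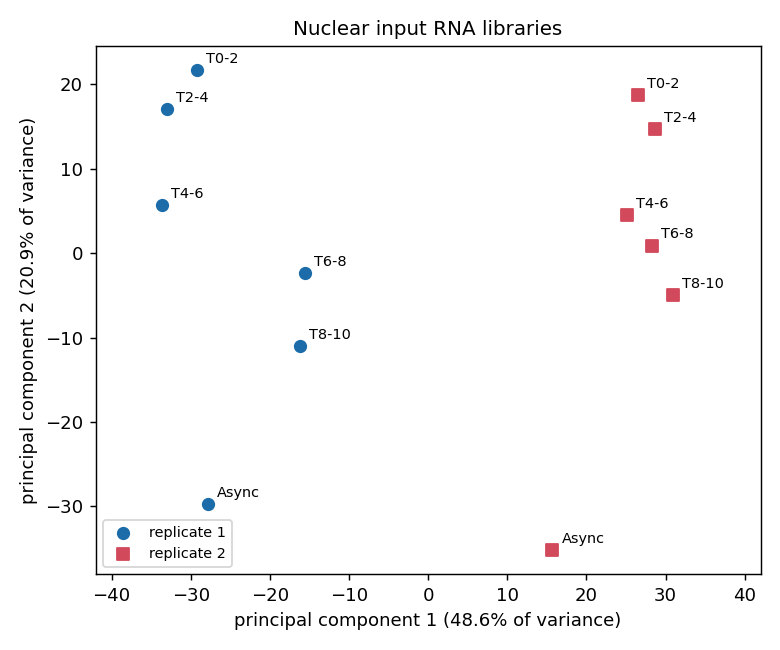
Principal components of the 12 nuclear input libraries, computed from log2(RPKM + 0.25) of the 9633 tested genes; circles are replicate 1 and squares replicate 2, each labelled with its window. The horizontal axis separates the replicate numbers and the vertical axis runs from T0-2 at the top to the asynchronous libraries at -29.7 and -35.2.

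Over all windows 189 genes rose (1.96% of those tested) and 251 fell (2.61%), together 440 or 4.57%, and 1844 genes (19.1%) had an unadjusted p under 0.05. With the replicate number as a block in the same model, 1575 genes rose (16.4%) and 1739 fell (18.1%). Blocked counts of gene lists below are to be read against these shares, and unblocked ones against 1.96% and 2.61%. All 440 genes were also called with the block. In this balanced design the block leaves each difference unchanged, so the shared direction was fixed in advance. All 440 also had the same sign in libraries numbered 1 and in libraries numbered 2. That count and the next, of overlap, were read from the values that made the calls, so neither is separate support. Of the 440, 416 had window libraries that did not overlap the asynchronous ones, against 1474 (15.3%) of all tested genes, 641 of them higher (6.65%) and 833 lower (8.65%). The median over all tested genes was 0.00 on the log2 scale. Among the windows, the F-test called 21 genes (0.218%), and 1262 with the block (13.1%). Where no F-test value is given, a course through the windows describes means only. With only 2 asynchronous libraries, the calls needed both: no gene passed without asynchronous replicate 1 (1243 at an unadjusted p under 0.05; 2442 passed with the block), and BTG2, LINC01705, NDRG1 and PURPL alone passed without asynchronous replicate 2 (1186 unadjusted; 1608 with the block). In the blocked fits 420 and 409 of the 440 kept their call without asynchronous replicates 1 and 2; of the called genes named by rule and reported here, CDCA7 lost it in both and SNHG15 in the second.

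**Figure D2:**
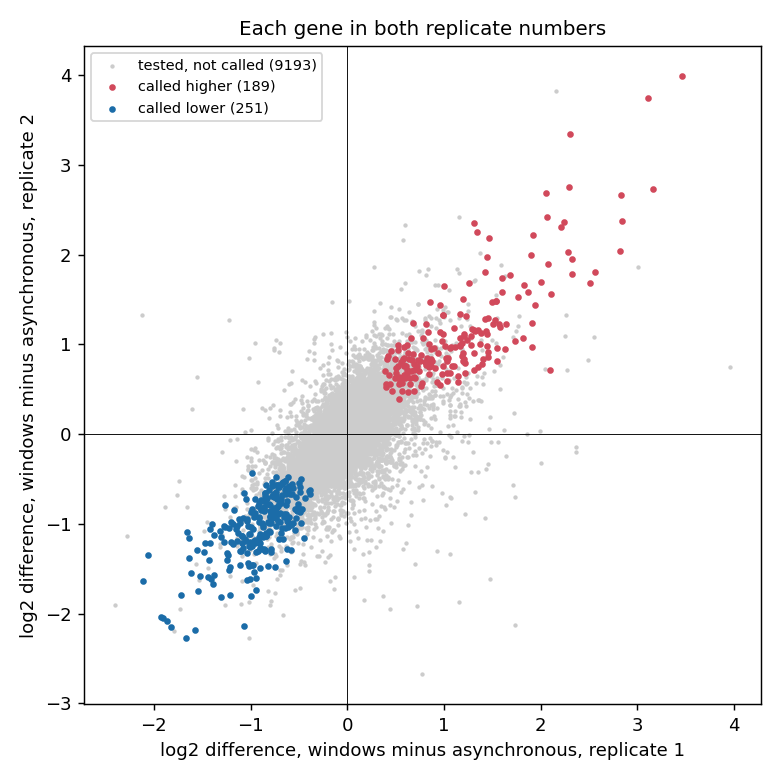
Log2 difference of the windows minus asynchronous cells for each tested gene, with libraries numbered 1 on the horizontal axis and libraries numbered 2 on the vertical axis. The 189 genes called higher lie at the upper right and the 251 called lower at the lower left.

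Replication-dependent histone genes differed among the windows more often than any other list examined here. Of 46 tested genes 7 rose over the mean of windows, 0 fell, and 44 had a positive difference, with a median of 0.59 (0.00 over all genes); with the block 27 rose. In bulk RNA, fewer cells that express a gene and less RNA per cell cannot be told apart. The mean hides a time course. The median difference began at -0.90 (T0-2), passed 0 at T2-4 (0.42), reached 1.37 at T4-6 and then eased to 1.13 (T6-8) and 0.87 (T8-10), and 41 of the 46 genes had their highest window mean at T4-6, against 14.6% of all tested genes. At T0-2 10 of the 46 were called lower than in asynchronous cells (2.16% of all genes were) and 0 higher, whereas at T4-6 14 were called higher (0.799% of all genes were) and 0 lower. The differences among windows passed the F-test for 15 of the 46, out of 21 genes in the whole table (0.218%), and for 40 with the block (13.1% of all genes). By limma without the block 0 genes passed after quantile normalization (651 at an unadjusted p under 0.05, against 624 as reported), 11 passed without T2-4 replicate 1 or without T2-4 replicate 2, and 0 passed without any other 1 library.

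The linker histone genes HIST1H1A to HIST1H1E encode proteins that bind the DNA between nucleosomes. The stretches below are the 130 bases before the RefSeq start of each gene on GRCh38.p14, 5′ to 3′ on the gene's strand. They are shown because known H1 promoters carry an AC-rich element and a CCAAT box, and capitals mark AAACACA and CCAATCA.
HIST1H1A, minus strand, chr6:26017788-26017917: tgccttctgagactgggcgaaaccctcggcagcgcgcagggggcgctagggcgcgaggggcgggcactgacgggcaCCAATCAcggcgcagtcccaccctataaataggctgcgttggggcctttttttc
HIST1H1B, minus strand, chr6:27867589-27867718: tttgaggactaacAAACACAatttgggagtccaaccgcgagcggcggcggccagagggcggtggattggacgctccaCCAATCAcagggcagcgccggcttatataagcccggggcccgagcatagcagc
HIST1H1C, minus strand, chr6:26056471-26056600: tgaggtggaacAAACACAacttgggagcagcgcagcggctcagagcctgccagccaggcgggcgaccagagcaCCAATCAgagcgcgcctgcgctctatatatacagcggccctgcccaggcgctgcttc
HIST1H1D, minus strand, chr6:26234988-26235117: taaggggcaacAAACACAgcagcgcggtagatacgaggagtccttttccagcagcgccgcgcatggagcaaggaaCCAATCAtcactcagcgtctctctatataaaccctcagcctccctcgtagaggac
HIST1H1E, plus strand, chr6:26156199-26156328: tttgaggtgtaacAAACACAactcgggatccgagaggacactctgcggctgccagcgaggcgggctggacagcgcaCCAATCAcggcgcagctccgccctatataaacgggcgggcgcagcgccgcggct
Both motifs were searched on both strands of the full 300-base RefSeq windows, and they share no bases with each other. CCAATCA stood 53 to 57 bases before the start in all 5 genes and in 7.0% of all 35116 promoter windows. AAACACA stood 117 or 119 bases before the start in 4 of the 5, while HIST1H1A held it only on the other strand at 183 bases; 5.6% of all windows hold it. These matches describe letters and show no binding.

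HIST1H1C, which had the highest RPKM of these 5 linker genes, had 122 and 110 RPKM at T0-2, 259 and 301 at T2-4, 649 and 576 at T4-6, 537 and 625 at T6-8 and 585 and 538 at T8-10, against 217 and 207 in asynchronous cells. It was below the asynchronous libraries at T0-2 and above them from T2-4 on, so the groups overlap over the whole course. The mean difference was 0.78 ± 0.17 (SE, 10 and 2 libraries, limma adjusted p = 0.0428), and the windows differed (F-test, limma adjusted p = 0.0215).

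HIST1H1A began at the asynchronous level and then exceeded it. It had 0.644 and 1.04 RPKM at T0-2, 5.38 and 3.67 at T2-4, 7.70 and 8.12 at T4-6, 7.37 and 8.35 at T6-8 and 4.66 and 4.09 at T8-10, against 0.888 and 0.687 in asynchronous cells, which there is 4 to 6 reads. Its mean difference of 2.07 ± 0.19 was the largest of the list (limma adjusted p = 0.0044). HIST1H1B had 37.2 and 39.1 RPKM at T0-2 and 304 and 210 at T4-6, against 90.4 and 80.6 in asynchronous cells. Its mean difference of 0.70 ± 0.21 missed the threshold (limma adjusted p = 0.0987; 0.014 with the block), while its difference among windows passed (0.0243). HIST1H1D had 0.731 and 0.304 RPKM at T0-2 and 25.6 and 7.66 at T4-6, against 4.75 and 2.51 in asynchronous cells, and its difference among windows passed only with the block (limma adjusted p = 0.156; 0.000539 with the block). HIST1H1E had 73.3 and 67.5 RPKM at T0-2, 306 and 357 at T4-6 and 339 and 346 at T8-10, against 117 and 147 in asynchronous cells. Its windows differed (limma adjusted p = 0.0494), and its mean difference of 0.67 ± 0.22 passed only with the block (0.138; 0.0128 with the block).

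Core histone genes, which build the nucleosome itself, followed the same order. HIST1H3C had 46.7 and 48.1 RPKM at T0-2, 118 and 170 at T2-4, 350 and 318 at T4-6, 220 and 314 at T6-8 and 220 and 224 at T8-10, against 87.3 and 81.5 in asynchronous cells (0.99 ± 0.21, limma adjusted p = 0.0385). HIST1H2AB, at 10.4 and 15.1 RPKM at T0-2 and 132 and 135 at T4-6 against 45.4 and 43.6 in asynchronous cells, crossed the asynchronous level between T0-2 and T2-4. Its mean over windows was 0.43 ± 0.21 above asynchronous cells (limma adjusted p = 0.321), with the early and later windows on opposite sides of them. HIST2H3D went furthest down at T0-2, with 5.08 and 3.12 RPKM against 21.5 and 21.7 in asynchronous cells, a difference of -2.36, and stood at 36.0 and 37.8 at T4-6.

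A few histone genes departed from this course in their window means. HIST1H4I, an H4 gene, had its highest window mean at T0-2, with 3.50 and 2.50 RPKM there and a range of 1.22 to 3.99 over the windows, against 0.667 and 0.430 in asynchronous cells (1.65 ± 0.37, limma adjusted p = 0.0457). Its windows passed no F-test of a difference among them (limma adjusted p = 0.391 with the block), and its highest single library was at T8-10. HIST1H4I rested on 5 to 9 reads in asynchronous cells and 20 to 65 in the windows. HIST1H3D peaked early, with 13.3 and 15.1 RPKM at T2-4 and 13.6 and 12.4 at T4-6, against 2.57 and 1.62 in asynchronous cells (1.83 ± 0.24, limma adjusted p = 0.00895). Its difference among windows passed only with the block (F-test, limma adjusted p = 0.259, and 0.0189 with the block). HIST1H3A (1.51 ± 0.25) and HIST1H2AC (0.93 ± 0.20) also rose. Histone genes have near-identical copies and some neighbours overlap, so single values may share reads between copies.

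Histone genes outside replication control moved little as a group: of 9 tested variants 1 rose and 0 fell, with a median of 0.15. The one that rose was H1F0, the linker histone of resting cells, listed at 0 in asynchronous cells, as in the T0-2 libraries. It had 0.0425 and 0.0923 RPKM at T2-4, 0.448 and 0.246 at T4-6, 0.662 and 0.433 at T6-8 and 0.749 and 0.717 at T8-10. H1F0 thus passed the filter of 0.5 RPKM only through the late windows where it was high. Of 16 factors that process or destroy histone messages 0 were called, with a median of -0.09. In the blocked fit 1 was higher and 5 were lower, against 16.4% and 18.1% of all genes. The most abundant of them, SRRT and UPF1, stood at -0.04 ± 0.41 and -0.11 ± 0.40.

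**Figure D3:**
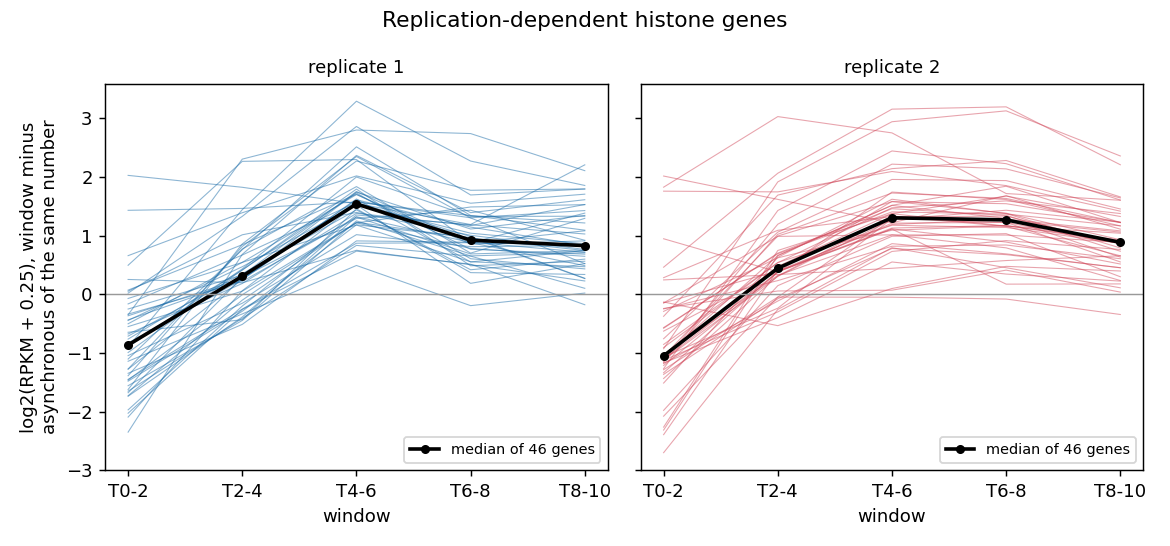
Log2(RPKM + 0.25) of each of the 46 tested replication-dependent histone genes in the 5 windows minus the asynchronous library of the same number, one panel per replicate number; thin lines are genes and the thick line is their median. In both panels the median lies below 0 at T0-2 and above 0 from T2-4 on, with its highest value at T4-6.

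Many targets of p53 rose and stayed up across the windows. The p53 protein is a transcription factor that is stabilised by DNA damage and other stress and turns on genes for arrest, repair and cell death. Of 34 tested targets 14 rose and 0 fell, and 31 had a positive difference; the median was 0.85, at 0.93 in libraries numbered 1 and 0.76 in those numbered 2. With the block 28 rose and 1 fell. GDF15 and ACER2, both among the risers, reached the 0.5 RPKM of the filter in window libraries only. The filter's part in these counts was not tested. The median ran from 0.58 at T0-2 to 1.04 at T4-6 and 0.91 at T8-10.

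CDKN1A encodes p21, the inhibitor of cyclin-dependent kinases. It had 32.1 and 43.1 RPKM at T0-2, 25.0 and 42.8 at T2-4, 44.3 and 62.9 at T4-6, 46.3 and 68.0 at T6-8 and 53.5 and 67.6 at T8-10, against 6.34 and 15.8 in asynchronous cells. Every window library was above both asynchronous ones (2.18 ± 0.36, limma adjusted p = 0.0155). MDM2, the ligase that degrades p53, ranged from 14.4 to 29.1 RPKM (median 22.4) in the windows, against 3.59 and 6.00 in asynchronous cells (2.16 ± 0.28). BTG2, an antiproliferative gene, ranged from 1.96 to 5.09 RPKM (median 4.23) against 0.607 and 0.866 (1.99 ± 0.17, limma adjusted p = 0.00412), with its low values at T0-2 and T2-4. Its windows differed only with the block (F-test, limma adjusted p = 0.263, and 0.00429 with the block).

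GDF15, a secreted stress cytokine of the TGF-beta family, had the largest difference of the list. It stood at 0.544 and 1.34 RPKM at T0-2, 0.428 and 1.08 at T2-4, 2.02 and 3.35 at T4-6, 3.22 and 5.10 at T6-8 and 1.63 and 2.73 at T8-10, against 0.0598 and 0.139 in asynchronous cells, which there is 9 to 18 reads. The later windows were the higher ones (2.52 ± 0.36, limma adjusted p = 0.0103; among windows, adjusted p = 0.378, and 0.000792 with the block). RRM2B, a subunit of ribonucleotide reductase, rose by 1.35 ± 0.18, and ACER2, a ceramidase, by 1.16 ± 0.22. The remaining 8 that rose were PLK3, EDA2R, POLH, SPATA18, TNFRSF10A, ZMAT3, TIGAR and SUSD6, by 0.63 to 1.15.

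Not every target followed. PLK2, chosen after its values were seen, averaged 59.0 RPKM in the windows and 131 in asynchronous cells (-1.35 ± 0.42, limma adjusted p = 0.112; 0.0022 with the block), and GADD45A averaged 13.2 and 17.7 (-0.47 ± 0.27). DDB2, BBC3, FDXR and SESN2, with differences of 1.42 to 1.55, passed only with the block (limma adjusted p of 0.000191 to 0.000284, against 0.0596 to 0.202 without it).

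Several genes induced by low oxygen rose, and those outside glycolysis that did were all called at T0-2 as well. Hypoxia-inducible factors (HIF) bind the core ACGTG near such genes, and they are degraded through prolyl hydroxylases that use oxygen and iron. Of 31 tested hypoxia genes outside glycolysis 10 rose and 0 fell, with a median of 0.78 and medians of 0.98, 0.64, 0.69, 0.65 and 0.40 from T0-2 to T8-10. With the block 19 rose, and 18 of the 31 had their highest window mean at T0-2, against 19.7% of all genes. CA9, NDRG1 and VLDLR, all among the risers, reached the 0.5 RPKM of the filter in window libraries only. The filter's part in these counts was not tested. Of 26 glycolysis genes 3 rose and 1 fell (median 0.42; 18 and 2 with the block).

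Promoter sequence is shown for the leading gene of each of these lists, CA9 and PGK1, because both rose over the mean of windows and both carry the HIF core. Capitals mark ACGTG on either strand, which reads CACGT when it lies on the other one, and each stretch ends at the base before the RefSeq start (GRCh38.p14, plus strand).
CA9, chr9:35673808-35673927: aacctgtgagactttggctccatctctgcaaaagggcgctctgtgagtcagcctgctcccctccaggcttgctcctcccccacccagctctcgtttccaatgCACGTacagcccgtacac
PGK1, chrX:78104028-78104247: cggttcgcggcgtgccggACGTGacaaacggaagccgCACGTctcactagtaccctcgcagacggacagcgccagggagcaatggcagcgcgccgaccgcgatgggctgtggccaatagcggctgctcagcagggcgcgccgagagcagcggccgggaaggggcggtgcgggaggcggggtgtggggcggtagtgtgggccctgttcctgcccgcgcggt
In CA9 the match began 18 bases before the start, and in PGK1 202 and 183 bases before it, with a further match just past the start. Over the RefSeq windows of 300 bases, 9 of 13 windows of the genes that rose in the hypoxia and glycolysis lists held ACGTG, against 34 of 84 windows of all tested members and 21.4% of all 35116 windows. RefSeq windows were at hand for 12 of the 13 genes that rose and 49 of the 57 tested. The lists were chosen as hypoxia and glycolysis genes, and the 13 are part of the 57, so these shares are no separate support. Here too the matches describe letters and show no binding.

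CA9, carbonic anhydrase 9 of the cell surface (chromosome 9, 35673928 to 35681159), had the largest difference of any gene seen in both groups. It stood at 4.12 and 11.1 RPKM at T0-2, 3.31 and 10.1 at T2-4, 5.00 and 11.6 at T4-6, 5.18 and 9.43 at T6-8 and 4.604 and 7.28 at T8-10, against 0.171 and 0.381 in asynchronous cells (13 to 25 reads). The level was high in every window, and the windows passed no test of a difference among them (3.73 ± 0.51, limma adjusted p = 0.00953; among windows, adjusted p = 1 and 0.546 with the block). Libraries numbered 2 were above those numbered 1 in each group.

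NDRG1, a stress-response gene, declined through the windows instead. It had 6.04 and 9.91 RPKM at T0-2, 3.63 and 5.60 at T2-4, 3.32 and 4.48 at T4-6, 1.82 and 2.09 at T6-8 and 1.02 and 1.11 at T8-10, against 0.166 and 0.366 in asynchronous cells. All windows were above the asynchronous libraries, with differences of 3.98 at T0-2 and 1.38 at T8-10 (mean 2.75 ± 0.24, limma adjusted p = 0.0044; among windows 0.0724, and 0.000539 with the block). VLDLR, a lipoprotein receptor, had the same order, with 2.51 and 1.66 RPKM at T0-2 and 0.617 and 0.448 at T8-10, against 0.364 and 0.320 in asynchronous cells (1.22 ± 0.27). BHLHE40, a transcriptional repressor, and PPFIA4 were also highest at T0-2, the second without a call (0.98 ± 0.24, limma adjusted p = 0.0606; 0.00056 with the block).

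WSB1 (1.51 ± 0.18), a ubiquitin ligase subunit, the mitochondrial gene FAM162A (1.39 ± 0.23) and the collagen prolyl hydroxylase P4HA2 (1.37 ± 0.14) stayed high in all windows. WSB1 ranged from 15.3 to 24.7 RPKM (median 17.0) in the windows, against 6.54 and 5.83 in asynchronous cells. P4HA1, BNIP3, EPAS1 and BHLHE40 completed the 10 that rose, by 0.78 to 1.10. HIF1A itself averaged 2.49 RPKM in the windows and 2.71 in asynchronous cells (-0.12 ± 0.36), and VEGFA 13.9 and 6.85 (0.94 ± 0.29, limma adjusted p = 0.111; 0.00074 with the block).

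Among glycolysis genes PGK1, phosphoglycerate kinase, ranged from 9.82 to 16.9 RPKM (median 13.3) in the windows, against 3.72 and 3.73 in asynchronous cells (1.75 ± 0.17, limma adjusted p = 0.0044). The enolase ENO2 had 21.3 and 36.6 RPKM at T0-2 and 6.26 and 11.5 at T8-10, against 3.37 and 5.51 in asynchronous cells (1.67 ± 0.39). The 2 lactate dehydrogenase genes moved apart. LDHA rose, with 30.4 to 84.0 RPKM (median 50.7) in the windows against 25.5 and 19.7 in asynchronous cells (1.23 ± 0.28), and LDHB fell, with 0.926 to 1.43 RPKM (median 1.30) against 3.07 and 2.84 (-1.11 ± 0.12, limma adjusted p = 0.00492). The hexokinase gene HK2 differed among windows (F-test, limma adjusted p = 0.0487), with a difference of 1.79 at T0-2 and -0.38 at T8-10.

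Iron genes, relevant to a drug that binds iron, showed no such shift: of 18 tested 0 were called, with a median of 0.10. In the blocked fit 2 were higher and 2 lower, against 16.4% and 18.1% of all genes. TFRC, the transferrin receptor, had 11.1 and 9.33 RPKM at T0-2 and 5.46 and 2.44 at T8-10, against 6.59 and 6.65 in asynchronous cells (0.13 ± 0.40). FTL, a ferritin chain, had 18.7 and 11.6 RPKM at T0-2 and 30.4 and 25.0 at T8-10, against 21.9 and 24.0 (-0.04 ± 0.21). HMOX1, heme oxygenase 1, had the largest value of the list, 1.69 ± 0.42 (limma adjusted p = 0.0577; 0.00053 with the block).

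**Figure D4:**
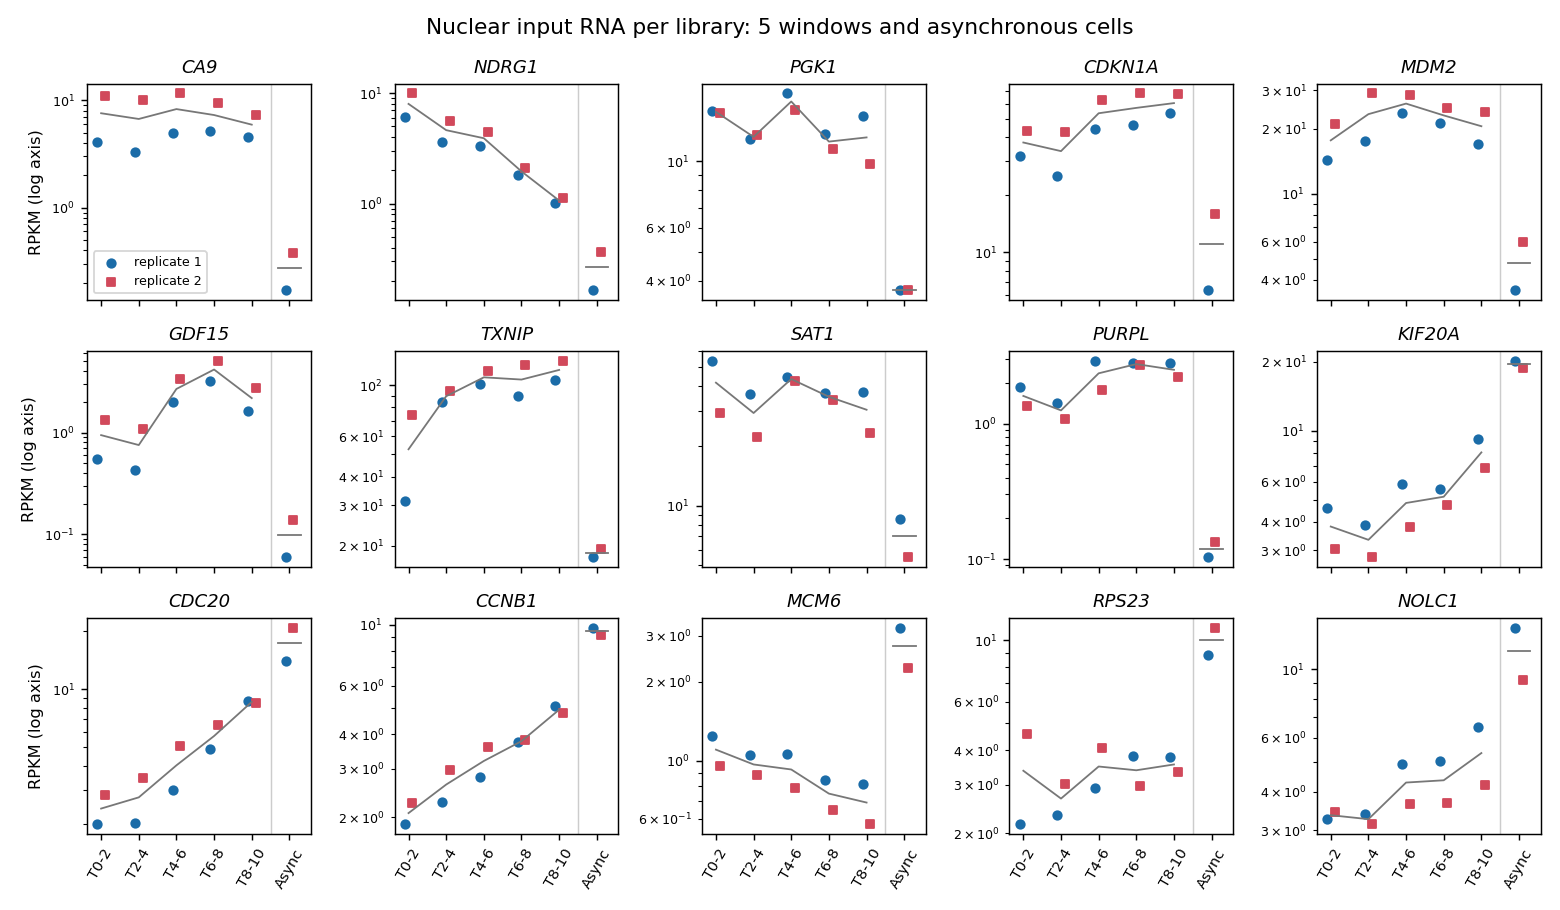
RPKM of 15 genes in each library on log axes, with the 5 windows in order on the left of each panel and asynchronous cells on the right; circles are replicate 1, squares replicate 2, and grey lines are group means. CA9 and PGK1 stay high in all windows, NDRG1 declines toward T8-10, and KIF20A, CDC20 and CCNB1 climb toward the asynchronous level without reaching it.

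Other genes among the 12 highest include an arrestin and an enzyme of polyamine breakdown. TXNIP, the thioredoxin-binding arrestin, had 31.4 and 73.8 RPKM at T0-2, 84.4 and 94.6 at T2-4, 101 and 115 at T4-6, 89.4 and 122 at T6-8 and 105 and 128 at T8-10, against 17.9 and 19.4 in asynchronous cells (2.25 ± 0.30, limma adjusted p = 0.00895). Its relative ARRDC4 rose by 1.59 ± 0.16, and these were 2 of 7 genes in the arrestin and thioredoxin list. SAT1, which acetylates polyamines, ranged from 22.1 to 53.9 RPKM (median 36.7) in the windows, against 8.53 and 5.51 in asynchronous cells (2.30 ± 0.31), and was the only call among 10 polyamine genes. TRIML2 rose by 2.37 ± 0.33. FAM167B (2.26 ± 0.43) rested on 1 to 4 reads in the asynchronous libraries. The pseudogenes HNRNPA1P3 and AC007686.1 were listed at 0 in both asynchronous libraries and averaged 1.78 and 1.27 RPKM in the windows; reads of such copies may come from their parent genes.

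Replication genes were not raised as a group in nuclear RNA of S-phase windows. Of 62 tested G1/S and replication genes 1 rose and 6 fell, against 1.96% and 2.61% of all genes, with a median of 0.12. In the blocked fit 14 rose and 11 fell, against 16.4% and 18.1% of all genes. The median was 0.17 at T0-2 and -0.20 at T8-10. The genes that fell included 3 of the MCM helicase, the ring that unwinds DNA at forks. MCM6 had 1.25 and 0.956 RPKM at T0-2 and 0.810 and 0.572 at T8-10, against 3.22 and 2.25 in asynchronous cells (-1.40 ± 0.18, limma adjusted p = 0.00895). MCM3 (-1.11 ± 0.14) and MCM5 (-1.03 ± 0.22) had all windows below the asynchronous libraries as well. CDCA7, which helps methylate DNA, had the largest fall, with 0.244 to 0.488 RPKM (median 0.319) in the windows against 2.30 and 1.19 (-1.70 ± 0.23). No window library of CDCA7 reached 0.5 RPKM, so it passed the filter through the asynchronous libraries alone. Without either of them it no longer passed and was not tested. UNG, uracil-DNA glycosylase (-1.03 ± 0.17), and GINS2, a fork component, completed the 6.

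The gene that rose was E2F7, a repressor of E2F targets that p53 also activates. It ranged from 6.84 to 11.7 RPKM (median 10.2) in the windows, against 3.44 and 2.47 in asynchronous cells, with its high values at T0-2 to T4-6 (1.61 ± 0.16, limma adjusted p = 0.0044). The difference among windows passed only with the block (F-test, limma adjusted p = 0.698, and 0.0342 with the block).

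Nuclear RNA of mitosis genes had its lowest median at T0-2 and its highest at T8-10. Of 61 tested G2/M genes 1 rose and 6 fell, with a median of -0.17 (6 and 24 with the block), and 46 of the 61 had their highest window mean at T8-10, against 31.0% of all genes. The median moved from -0.47 at T0-2 through -0.35, -0.16 and -0.03 to 0.11 at T8-10. It was -0.34 in libraries numbered 1 and -0.04 in those numbered 2. Differences among windows passed the F-test for 0 of the 61 genes, and for 25 with the block, against 0.218% and 13.1% of all genes.

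KIF20A, a kinesin of cytokinesis, had 4.58 and 3.05 RPKM at T0-2, 3.87 and 2.81 at T2-4, 5.85 and 3.81 at T4-6, 5.56 and 4.74 at T6-8 and 9.18 and 6.91 at T8-10, against 20.3 and 18.9 in asynchronous cells. It stayed below the asynchronous libraries throughout (-1.99 ± 0.23, limma adjusted p = 0.00598). CDC20, the activator of the anaphase-promoting complex, had 2.00 and 2.81 RPKM at T0-2 and 8.72 and 8.46 at T8-10, against 14.0 and 20.8 (-1.98 ± 0.27). CCNB1, cyclin B1, had 1.89 and 2.25 RPKM at T0-2 and 5.07 and 4.76 at T8-10, against 9.76 and 9.19 (-1.50 ± 0.16, limma adjusted p = 0.0044).

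DLGAP5 (-0.86 ± 0.17), the kinase AURKA (-0.83 ± 0.13) and the checkpoint gene MAD2L1 (-0.77 ± 0.17) were the others that fell. NUSAP1, a spindle protein, was the gene that rose (0.67 ± 0.14, limma adjusted p = 0.0384). FOXM1, the factor that drives many of these genes, averaged 2.25 RPKM in the windows and 1.18 in asynchronous cells (0.76 ± 0.43, limma adjusted p = 0.393; 0.0024 with the block).

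**Figure D5:**
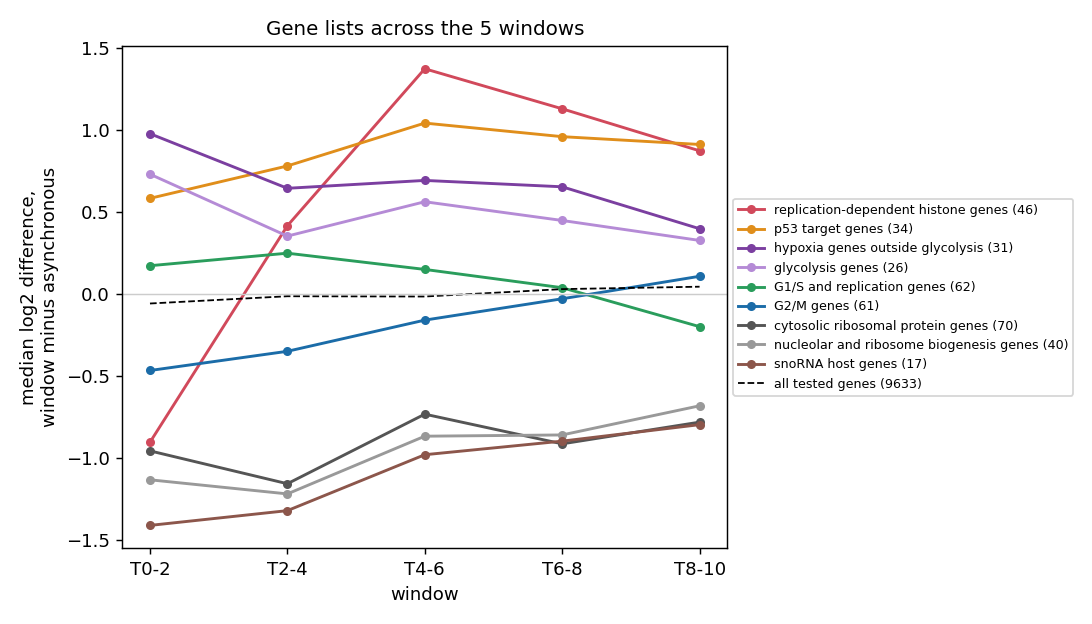
Median log2 difference of each window minus asynchronous cells for 9 gene lists and for all 9633 tested genes (dashed); the number of tested members stands in the legend. Histone genes run from -0.90 at T0-2 to 1.37 at T4-6, G2/M genes climb from -0.47 to 0.11, and the nucleolar list stays between -1.22 and -0.68.

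Most genes measured here for making ribosomes were lower in the windows. Of 70 tested cytosolic ribosomal protein genes 31 fell and 0 rose, 69 had a negative difference, and the median was -0.89 (-0.77 in libraries numbered 1, -1.05 in those numbered 2); with the block 62 fell and 1 rose. Of 40 nucleolar and ribosome biogenesis genes 20 fell and 0 rose, all 40 were negative, and the median was -0.98 (38 and 0 with the block). The lowest medians of both lists came at T2-4, at -1.16 and -1.22.

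RPS23, a protein of the small subunit, ranged from 2.16 to 4.58 RPKM (median 3.17) in the windows, against 8.86 and 11.1 in asynchronous cells (-1.55 ± 0.26, limma adjusted p = 0.0167). RPL13A ranged from 7.02 to 15.4 (median 9.40) against 24.9 and 32.8 (-1.50 ± 0.23), and RPL4 from 2.48 to 4.68 (median 3.41) against 8.81 and 8.86 (-1.36 ± 0.19). RPL3 stood at -1.27 ± 0.20 and RPL10A at -1.25 ± 0.26, both called. The elongation factor EEF1A1, which delivers tRNA to the ribosome, ranged from 13.2 to 27.8 RPKM (median 18.1) against 46.7 and 58.5 (-1.56 ± 0.24, limma adjusted p = 0.0125). Ribosomal protein genes have many processed pseudogenes, so their reads can be split between copies.

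In the nucleolus, NOLC1, a chaperone of small nucleolar particles, had 3.28 and 3.45 RPKM at T0-2, 3.38 and 3.15 at T2-4, 4.92 and 3.66 at T4-6, 5.05 and 3.67 at T6-8 and 6.47 and 4.22 at T8-10, against 13.6 and 9.21 in asynchronous cells (-1.42 ± 0.23, limma adjusted p = 0.0137). The histone chaperone NPM3 (-1.97 ± 0.31), RRP9 (-1.76 ± 0.29), which binds the U3 particle, the helicase DDX21 (-1.58 ± 0.34) and UTP20 (-1.34 ± 0.12) had all windows below the asynchronous libraries. RRS1, an assembly factor of the large subunit, neared the asynchronous level late, with 1.26 and 1.74 RPKM at T0-2 and 5.60 and 5.82 at T8-10, against 5.91 and 9.72 (-1.31 ± 0.21). Its windows differed only with the block (F-test, limma adjusted p = 0.106, and 0.00466 with the block).

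Host genes of small nucleolar RNAs, which carry those RNAs in their introns and share promoters of the ribosomal type, had a median difference of -1.10. Of 17 tested 7 fell and 0 rose (15 and 1 with the block), and the median was -1.41 at T0-2 and -0.80 at T8-10. GAS5 had 12.2 and 9.13 RPKM at T0-2 and 29.5 and 14.0 at T8-10, against 48.7 and 35.3 in asynchronous cells (-1.52 ± 0.32, limma adjusted p = 0.0384). SNHG19 (-1.88 ± 0.42), SNHG8 (-1.64 ± 0.30), SNHG15 (-1.34 ± 0.28), ZFAS1 (-1.33 ± 0.19), SNHG16 (-1.18 ± 0.21) and SNHG6 (-1.09 ± 0.23) were the others. The remaining genes among the 12 lowest were BEX1 (-1.98 ± 0.37), the mitochondrial aldehyde dehydrogenase ALDH1B1 (-1.60 ± 0.31) and MIR621 (-1.88 ± 0.35), a microRNA locus resting on 1 to 9 reads in the windows and 10 to 12 in asynchronous cells.

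Non-coding RNAs enriched in S phase are named in the title of the series. Of 336 tested genes annotated as lincRNA 17 rose and 11 fell (5.06% and 3.27%), against 154 and 231 of 8678 protein-coding genes (1.78% and 2.66%). With the block these were 87 and 34 lincRNAs and 1382 and 1630 coding genes. The median over lincRNAs was 0.14. The filter asked for 0.5 RPKM in 2 of the 12 libraries, 10 of them windows, so weak genes could enter through the windows alone. LINC01705, PURPL, LINC01629 and AL021807.1 did so, with asynchronous values under 0.5 RPKM. The same holds for LUCAT1 and, outside the lincRNAs, for TRIML2, FAM167B, ARRDC4, HNRNPA1P3 and AC007686.1. A tilt toward rises among weak genes can follow from such a filter, and its part in these counts was not tested. In a list of 23 nuclear and other long non-coding RNAs 4 rose and 0 fell (11 and 2 with the block).

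LINC01705 (chromosome 1, 222041704 to 222059393) had 7.19 and 4.72 RPKM at T0-2, 1.65 and 2.04 at T2-4, 2.86 and 1.87 at T4-6, 1.37 and 1.39 at T6-8 and 1.01 and 0.813 at T8-10, against 0.0250 and 0.0676 in asynchronous cells (6 to 14 reads). It was highest at T0-2 and stayed far above the asynchronous level (2.95 ± 0.20, limma adjusted p = 0.00181; among windows 0.0487). PURPL (chromosome 5, 27472292 to 27496401), a p53-induced RNA that restrains p53, ranged from 1.07 to 2.93 RPKM (median 2.04) with its higher window means from T4-6 on, against 0.103 and 0.134 (2.61 ± 0.20, limma adjusted p = 0.00239). Its windows differed only with the block (F-test, limma adjusted p = 0.551, and 0.0194 with the block). LINC01629 rose by 2.14 ± 0.30. AL021807.1 had no listed value above 0 in asynchronous cells and had 1.23 to 7.29 RPKM (median 1.99) in the windows, which there is 10 to 61 reads.

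The study knocked down MANCR (LINC00704), LUCAT1 and MIAT. LUCAT1 (chromosome 5, 91302986 to 91314402) had 2.73 and 1.67 RPKM at T0-2, 0.929 and 0.888 at T2-4, 0.685 and 0.484 at T4-6, 0.661 and 0.523 at T6-8 and 0.514 and 0.533 at T8-10, against 0.236 and 0.215 in asynchronous cells (1.19 ± 0.18, limma adjusted p = 0.0113). All its window libraries were above the asynchronous ones, most at T0-2, and its windows differed only with the block (F-test, limma adjusted p = 0.0996, and 0.00257 with the block). MANCR had 10.4 and 5.30 RPKM at T0-2 and 3.71 to 7.04 later, against 4.11 and 3.29 (0.57 ± 0.35, limma adjusted p = 0.443; 0.00738 with the block). MIAT had 0.732 to 1.40 RPKM (median 0.923), against 0.187 and 0.844 (0.83 ± 0.29, limma adjusted p = 0.161; 0.0327 with the block). Asynchronous library 2 lay above the lowest windows, so the groups overlap. Strand use in counting is not stated for these tables, so reads of overlapping or antisense partners may not be separable.

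A pair of other non-coding RNAs passed only with the block. NEAT1, the scaffold of paraspeckles, chosen after its values were seen, averaged 118 RPKM in the windows and 40.5 in asynchronous cells (1.34 ± 0.71, limma adjusted p = 0.363; 0.00203 with the block). MIR17HG, the host of a microRNA cluster driven by MYC and E2F, averaged 0.578 and 2.04 (-1.50 ± 0.50, limma adjusted p = 0.139; 0.00083 with the block).

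Several pathways had 1 or 2 calls. The immediate early gene ATF3 (0.75 ± 0.14, 1 of 19), DUSP10 of the kinase phosphatases (1.37 ± 0.18, 1 of 14 ERK feedback genes), the ER oxidoreductase P4HB (0.88 ± 0.20, 1 of 20 ER chaperone genes), the cytokine IL1A (1.32 ± 0.30, 1 of 18 NF-kB and cytokine genes) and FBN2, a fibrillin (0.50 ± 0.11, 1 of 22 matrix crosslinking and TGF-beta genes), rose alone in their lists. Of 16 collagen genes COL17A1 (0.91 ± 0.15) and COL6A3 (0.68 ± 0.15) rose. The splicing factor SRSF1 (-0.74 ± 0.16, 1 of 18) and the chromatin protein HMGB3 (-0.77 ± 0.13, 1 of 9) fell alone. Over all tested genes 1.96% rose and 2.61% fell, so 1 or 2 calls are not read as a result about a list. ATF3, COL17A1 and COL6A3 reached the 0.5 RPKM of the filter in window libraries only.

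By limma without the block no gene was called in the lists of ATF4 targets (22 tested), NRF2 targets (8), sterol synthesis (23), interferon-stimulated genes (15), BMP pathway (13), tubulins (8) or small nuclear RNAs (16). With it these lists had 1 higher and 5 lower, 0 and 1, 4 and 8, 7 and 1, 4 and 2, 1 and 1, and 0 and 0. Over all genes the blocked fit called 16.4% higher and 18.1% lower. Among the most abundant of them, SHMT2 stood at -0.82 ± 0.28 (limma adjusted p = 0.151; 0.0028 with the block), TUBB4B at -0.60 ± 0.18 (0.108; 0.0119 with the block) and STAT2 at 0.59 ± 0.33 (0.394; 0.0038 with the block). NQO1 stood at -0.54 ± 0.29 (limma adjusted p = 0.368; 0.0151 with the block), and EBP at 0.48 ± 0.29 passed neither way (0.440; 0.0584 with the block). The other abundant members ATF4, TKT, ID1, ID3 and TUBA1A passed neither way and lay between -0.44 and 0.33.

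Markers of pigment epithelium were looked up, and their values do not settle the cells' identity. Of 16 markers 11 were in the table and 5 were tested: OTX2, MITF and SERPINF1 at 0.16 to 0.32, KRT18 at -1.49 ± 0.37 (limma adjusted p = 0.0582; 0.000716 with the block) and KRT8, which fell (-1.11 ± 0.24, limma adjusted p = 0.0396). The summed level of the 11 in the table was 10.8 to 18.6 RPKM in the windows, against 27.1 to 30.2 in asynchronous cells, mostly from the 2 keratins. The pigment genes TYR, TYRP1 and PMEL stood at no more than 0.390 RPKM in any library, and BEST1, LRAT and MERTK at no more than 0.138. RPE65, RLBP1 (also entered as CRALBP), TTR and DCT were not in the table. Of 17 markers of other cell types 7 were in the table and 0 were tested, with sums of 0.126 to 0.422 RPKM in the windows and 0.107 to 0.269 in asynchronous cells. The part of changes in keratin level in other results was not tested.

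Each window was also set against asynchronous cells by itself. The T0-2 window had 149 genes called higher (1.55%) and 208 lower (2.16%), or 3.71% in all. The T2-4 window had 80 (0.83%) and 180 (1.87%), or 2.7%, and the T4-6 window 77 (0.799%) and 28 (0.291%), or 1.09%. The T6-8 window had 59 (0.612%) and 26 (0.27%), or 0.882%, and the T8-10 window 15 (0.156%) and 4 (0.0415%), or 0.197%. The 251 genes called lower over all windows were closest to asynchronous cells at the end: their medians from T0-2 to T8-10 were -1.05, -1.15, -0.86, -0.85 and -0.70, and 172 of them were highest at T8-10. The 189 called higher stayed up, with medians of 0.97, 1.01, 1.08, 1.03 and 0.91 in the same order. How many pass at a window also rests on 2 libraries a group, and a difference in count between windows was not tested.

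Nuclear nascent RNA and whole-cell input RNA of the same windows were scaled in tables of their own and are given side by side. In nuclear nascent RNA 191 of 9784 genes were called higher (1.95%) and 249 lower (2.54%). Of these 94 were among the 189 that rose in nuclear input RNA (49.7% of the input list and 49.2% of the nascent one), and 128 were among the 251 that fell (51.0% and 51.4%). In whole-cell input RNA 3 of 9825 genes were called higher (0.0305%) and 0 lower (0.0%) by limma (865 at an unadjusted p under 0.05, 518 of them lower). No block was fitted to the nascent or whole-cell values. Where tested in whole-cell input RNA, 159 of 168 genes that rose in nuclear input RNA had the same sign, with a median of 0.75. Among those that fell, 239 of 243 did, with a median of -0.81. The share of all tested genes with the same sign in both was not counted, so these counts have no background here. Few calls there do not by themselves mean that the differences were absent.

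By gene, CA9 differed by 3.73 in nuclear input, 3.46 in nuclear nascent (limma adjusted p = 0.00409) and 4.91 in whole-cell input RNA (0.0204). NDRG1 differed by 2.75, 2.83 and 3.25 in the same order, with limma adjusted p-values of 0.0044, 0.00125 and 0.0204. MDM2 stood at 2.16, 2.19 and 2.05 and KIF20A at -1.99, -2.37 and -1.77, called in both nuclear tables and not in whole-cell RNA. Histone genes had a median of 0.59 in nuclear input, 0.26 in nuclear nascent and 0.68 in whole-cell input RNA, and 0 of 46 were called in the nascent table. For HIST1H1A the values were 2.07, 1.28 and 2.21. Ribosomal protein genes had medians of -0.89, -1.01 and -0.53, with 23 of 70 called lower in the nascent table. No test compared the tables with each other.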

How the data were processed

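The authors deposited RPKM values, 1 column per library, in a table of nuclear input RNA with 16794 genes; tables of nuclear nascent and whole-cell input RNA have the same unit. The submitters' processing notes name hg38 and, with no role, edgeR, featureCounts 1.6.1, STAR 2.5.3, HOMER 4.10.3 and Bowtie2 2.3.4.3. The RPKM steps gave whole reads for 100% of values checked (up to 200 reads, tolerance 0.05), from which library sizes were recovered. The authors' length column, known for 89.2% of genes, lay within 2% of the RefSeq gene span for 63.2% of 14027 genes.

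Genes that reached 0.5 RPKM in 2 or more of the 12 libraries were tested with limma 3.58.1 (R 4.3.3) on log2(RPKM + 0.25), 6 group means, eBayes with a trend and Benjamini-Hochberg adjustment over 9633 genes; differences among windows used the moderated F-test. The code was tested on simulated data. Replicate numbers were taken from the labels; deviations from group means correlated at 0.627 to 0.861 (median 0.774) between same-numbered libraries over all 15 pairs of groups, so the numbers pair the samples, and blocked values stand beside results they change. Named genes were the 12 highest and 12 lowest called genes without overlap at a mean of at least 1 RPKM, up to 6 called genes per list (or its 2 most abundant), up to 12 genes with the smallest p among windows, and the 3 knocked-down RNAs; a few genes this rule names are not reported here. PLK2, GADD45A, DDB2, BBC3, FDXR, SESN2, HIF1A, VEGFA, PPFIA4, HK2, HMOX1, NUSAP1, FOXM1, NEAT1, MIR17HG, KRT18, HIST1H1D, HIST1H1E and members named to complete a count fall outside this rule and were chosen after their values were seen. The members, 33 lists, motifs and tests were chosen with earlier results of these data known. Symbols were matched to RefSeq GRCh38.p14 for sequence and coordinates. Figures used Python 3.11.15 and matplotlib 3.10.9. No mitochondrially encoded gene was in the table. Whole-cell nascent, knockdown and chromatin samples were not used here. Alternatives covered the pseudocount, the filter, scaling, the trend, the replicate block and leaving out each library.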

Additional observations from a re-analysis of the deposited data

Results flagged for a closer look

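Of the genes named by the rule, 14 differed among the 5 windows by the moderated F-test of limma on nuclear input RNA, that is, their difference from asynchronous cells was not the same in every window. Of these, 12 are replication-dependent histone genes, each highest at T4-6 and lowest at T0-2. The adjusted p was 0.02068 for HIST1H1A, HIST1H2AB, HIST1H3H and HIST2H3D, 0.02147 for HIST1H1C, 0.02247 for HIST1H2BM, 0.02426 for HIST1H1B and HIST1H2AE, 0.02766 for HIST1H2AD, HIST1H2BF and HIST1H3C, and 0.03377 for HIST1H4C. None of the 14 passed after quantile normalization, or without any 1 library other than a T2-4 one, since 0 genes did; 11 genes passed without either T2-4 library in turn. With the replicate block each of the 12 histone genes had an adjusted p of at most 0.00163. The other 2 passed at 0.04873 each: LINC01705 was highest at T0-2 and lowest at T8-10, and H1F0 was highest at T8-10 and listed at 0 at T0-2. H1F0 passed the filter on low values only through T6-8 and T8-10 libraries, and LINC01705 only through window libraries. HIST1H2BM rested on few reads, 3 to 66 in the windows and 11 to 12 in asynchronous cells.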

How the results depend on the processing

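Among the genes named by rule that were called, none changed sign under any alternative. Without a filter on low values 1289 genes were called (380 higher and 909 lower, against 189 and 251), with 757 at T0-2, 136 at T6-8 and 10 among windows. With a pseudocount of 1 the split was 143 and 278, and T8-10 had 11 calls; with 0.1, 12 genes differed among windows. Quantile normalization left 33 calls at T4-6, 49 at T6-8, 1 at T8-10 and 0 among windows (limma; 651 genes at an unadjusted p under 0.05, against 624 as reported).

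The numbers pair the samples, and the replicate block raised the counts to 3314 (1575 higher, 1739 lower), to 3452, 3152, 1952, 2094 and 1414 from T0-2 to T8-10, and to 1262 among windows (1509 from window libraries only with the block). The block without asynchronous replicate 1 gave 2442 (1256 higher, 1186 lower) and without asynchronous replicate 2 1608 (742 and 866); these fits were chosen after seeing the data. Leaving out 1 library in turn gave 0 to 286 calls (0 to 136 higher, 0 to 168 lower), 1 to 251 at T0-2, 0 to 179 at T2-4, 0 to 56 at T4-6, 0 to 36 at T6-8, 0 to 8 at T8-10 and 0 to 11 among windows; for the mean, the 0 belongs to asynchronous replicate 1 and leaving out a window library gave 222 to 286. Where an arm kept 1 library, it was assumed to vary like the others.

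Genes that changed sign were all uncalled. Quantile normalization gave log2 differences of 0.14 for SRRT, 0.18 for FTL, 0.00582 for TUBA1A and -0.0219 for HIST1H4C. With the block and without asynchronous replicate 1, SRRT stood at 0.0909, UPF1 at 0.0472 and TFRC at -0.29; with the block and without asynchronous replicate 2, FTL stood at 0.0764, TKT at -0.0250 and ID3 at -0.0380. Leaving out 1 library in turn gave -0.34 to 0.26 for SRRT, -0.38 to 0.15 for UPF1, -0.11 to 0.0258 for FTL, -0.26 to 0.31 for TKT, -0.22 to 0.28 for ID3, -3.995 to 5.95 for RNU4-2 and -4.20 to 6.23 for RNU4-1. The causes were not tested. With 2 libraries a group, precision was limited by the spread between libraries, and for genes of few reads, such as MIR621, also by depth.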
